A study of Homo sapiens and Mus musculus with 9 samples.

Results

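Cytosolic and endoplasmic reticulum (ER) chaperones were followed through the ribosome footprints and small RNAs of HEK293 cells, a human embryonic kidney line. The set holds 7 genes, taken as the transcripts that the deposited small RNA peak lists pair with the symbols HSPA1B, HSPA4, HSPA8, HSP90AA1, HYOU1, HERPUD1 and CANX. These 7 transcripts are among 5778 that the lists pair with a symbol. Of the 7, 6 had footprint reads that could be recovered, among 10281 transcripts of the ribosome profiling (Ribo-seq) tables. The HSP90AA1 transcript was not analysed here for footprints, and is described by its small RNA peaks and the authors' fold values.

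Each group was 1 library of wild-type HEK293 cells. A pair of libraries, trans1 and trans2, came from starved cells transfected with a trans-RNA against ATF4, which encodes a transcription factor that drives stress-response genes. Their treatment labels are identical, and whether they repeat 1 treatment or used different RNAs is not stated, so each was kept as its own group. The starvation library came from starved cells with no transfection named, and the control library from cells with neither. The kind and duration of starvation were not given in the sources used here, and no library of starved cells with a control RNA was analysed here. Small RNA of HEK293 cells with no treatment named was sequenced once after enrichment for capped RNA and once as total small RNA. The mouse liver libraries of the series were not used here. With 1 library per group no difference has a replicate check, no p-value was computed, and every interval below is an exact 95% interval of counting error only.

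Chaperones bind unfolded proteins and keep them from aggregating. In the cytosol, HSP70 proteins work through cycles of ATP hydrolysis that J-domain proteins start and nucleotide exchange factors end, and they hand clients on to HSP90. When unfolded proteins accumulate there, the transcription factor HSF1 induces inducible HSP70 and HSP90 genes through heat shock elements in their promoters. In the ER lumen a parallel set of chaperones and degradation factors is induced by the unfolded protein response, through ER stress elements bound by ATF6 and XBP1. A sensor of that response, PERK, also phosphorylates the initiation factor eIF2, which raises ATF4 translation.

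Promoters were searched because HSF1 and the ER stress factors act through such elements. Only starts with a match inside the printed bases are shown, which leaves out HSPA4, CANX and the first HSP90AA1 start. Whether these elements bear on the footprint ratios was not tested. RefSeq start sites of GRCh38.p14 were found for all 7 genes, 11 starts in all. The 250 bases before each start were searched on both strands for 5 patterns, and a match is a description of letters, not a bound site. The heat shock patterns were GAANNTTC and TTCNNGAA, pairs of facing repeats, which overlap where a further repeat follows. Either was present at 11.6% of the 35116 starts in the table. The ER patterns were the ER stress element, CCAAT and CCACG with 9 bases of any kind between them, present at 0.074% of starts, and the ER stress element II, ATTGG and CCACG with 1 base of any kind between them, present at 0.0513%. The TATA box TATAAA was present at 10.7%. The sequences below are the 120 bases before the start in the direction of the gene, 5′ to 3′, with matched letters in capitals.
HSPA1B (chr6:31827618-31827737, + strand): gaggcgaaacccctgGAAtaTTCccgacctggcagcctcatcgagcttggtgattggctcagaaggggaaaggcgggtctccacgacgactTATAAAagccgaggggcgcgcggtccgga
HSPA8 (chr11:123062137-123062256, - strand): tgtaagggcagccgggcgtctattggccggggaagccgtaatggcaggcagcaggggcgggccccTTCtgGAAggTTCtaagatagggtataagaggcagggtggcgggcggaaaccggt
HSP90AA1 (chr14:102087045-102087164, - strand, the second of its 2 starts in the table): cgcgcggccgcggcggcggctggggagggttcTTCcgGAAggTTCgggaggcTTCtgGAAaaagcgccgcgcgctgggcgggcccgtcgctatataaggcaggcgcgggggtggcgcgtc
HYOU1 (chr11:119057206-119057325, - strand): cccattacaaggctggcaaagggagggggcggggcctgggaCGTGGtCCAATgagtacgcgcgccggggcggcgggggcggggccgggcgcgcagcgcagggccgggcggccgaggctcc
HERPUD1 (chr16:56932022-56932141, + strand): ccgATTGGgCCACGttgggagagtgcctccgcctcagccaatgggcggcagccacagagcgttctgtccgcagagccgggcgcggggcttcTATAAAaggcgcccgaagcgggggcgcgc
The HSPA1B start carried a heat shock pair whose first base lay at -105 and a TATA box at -29. The HSPA8 start carried overlapping pairs at -55 and -50, with another overlapping couple at -230 and -225, upstream of the bases printed. The HSP90AA1 start carried overlapping pairs at -88 and -83 and a further pair at -68. HYOU1 and HERPUD1 carried the ER stress element II, HYOU1 at -79 and, upstream of the bases printed, at -185, both on the opposite strand, and HERPUD1 at -117, and HERPUD1 also had a TATA box at -29. Of the 4 CANX starts, an ER stress element lay before 2, at -189 from one and -151 from the other, which is the same site, and another start had heat shock pairs at -156 and -139. None of the 5 patterns matched in the windows of HSPA4, the remaining CANX start and the first HSP90AA1 start.

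Footprint reads were compared as reads per 1000000 recovered reads of the library (CPM), and levels between genes as CPM per kb of recovered coding length. The libraries held 6128839 reads in trans1, 7526796 in trans2, 9376582 in starvation and 10643308 in control. CANX, the ER membrane lectin calnexin that holds glycoproteins during folding, had the highest level of the 6 in every library. Its level was 540.6 CPM per kb in trans1, 476.1 in trans2, 607.0 in starvation and 540.3 in control. HSPA8, the constitutive cytosolic HSP70 (HSC70), was next in every library, at 268.3 CPM per kb in trans1, 227.4 in trans2, 272.9 in starvation and 431.0 in control. Both stood above 88.5% or more of all transcripts by this measure, while the other 4 members lay between 20.8 and 80.9 CPM per kb.

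**Figure D1:**
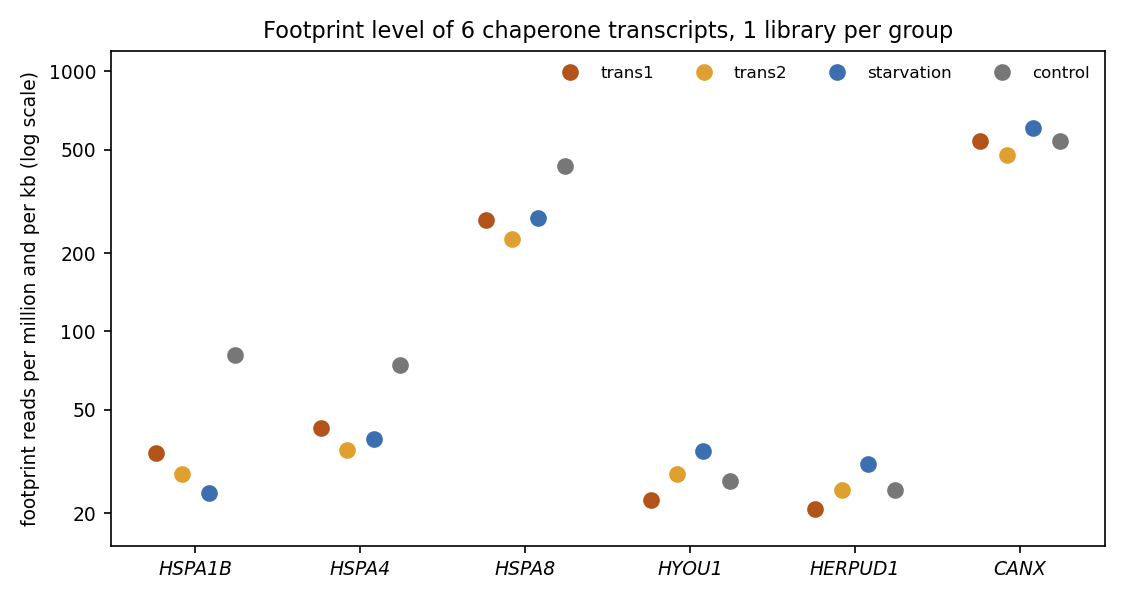
Footprint level of the 6 recovered chaperone transcripts, in CPM per kb of coding length on a log axis, with 1 point per library (trans1, trans2, starvation, control). HSPA1B, HSPA4 and HSPA8 have their highest point in control, and HYOU1, HERPUD1 and CANX in starvation.

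The order of the lower 4 members changed between libraries. In trans1 and in trans2 HSPA4 was first of the 4, at 42.7 CPM per kb (39.5 to 46.1) in trans1 and 35.1 (32.5 to 37.8) in trans2. HYOU1 and HERPUD1 had overlapping intervals in each of the 4 libraries. In starvation HSPA1B was last of the 4, at 23.9 CPM per kb (21.7 to 26.2), and in control it was first, at 80.9 (77.1 to 84.9), with HSPA4 beside it at 74.4 (71.2 to 77.8) and an overlapping interval. The levels of HSPA1B rest on its whole coding length although its reads lay in few stretches, as described below. Reads of the 6 transcripts made up 0.175% of all recovered reads in trans1, 0.155% in trans2, 0.190% in starvation and 0.225% in control.

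Starvation was set against control to describe how footprints on chaperone mRNAs differed between these libraries. Over the whole transcript, the 3 cytosolic HSP70-family members were lower in starvation and the 3 ER members were higher. Of all transcripts, 50.2% had a ratio below 0. The wider lists described below did overlap, with DNAJC8 of the cytosolic list at 0.55 and TMX3 of the ER list at -0.49. HSPA1B, which encodes inducible HSP70, had 432 reads (46.1 CPM) in starvation and 1661 reads (156.1 CPM) in control, 3.34-fold lower (log2 ratio -1.74, interval -1.89 to -1.59). HSPA4, an HSP110-type nucleotide exchange factor of HSP70, had 97.7 CPM in starvation and 188.0 CPM in control, 1.92-fold lower (-0.94, -1.05 to -0.82). HSPA8 had 530.5 CPM in starvation and 837.8 CPM in control, 1.58-fold lower (-0.66, -0.71 to -0.61). These log2 ratios were taken after adding 1 CPM to both values. A ratio as low as that of HSPA1B was rare, since 0.156% of all transcripts lay lower, while 2.51% lay lower than HSPA4 and 7.68% lower than HSPA8. In bulk libraries, fewer cells expressing a transcript and fewer footprints per cell cannot be told apart, and mRNA level and translation cannot be told apart either because no matched RNA-seq of HEK293 cells was analysed here.

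The ER members differed by less. HYOU1, an ER HSP110-type chaperone also called ORP150, had 104.4 CPM in starvation and 79.8 CPM in control (0.38, 0.25 to 0.52). HERPUD1, an ER membrane protein of ER-associated degradation, had 36.3 CPM in starvation and 28.8 CPM in control (0.32, 0.10 to 0.54). CANX had 1081.6 CPM in starvation and 962.9 CPM in control (0.17, 0.13 to 0.21). All 3 intervals lay above 0, yet 65.0 to 81.1% of all transcripts had a lower ratio than these members, so they sat inside the bulk of the distribution.

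Of the 6 members, 1 passed a 2-fold difference downward and 0 upward. Over all 10276 transcripts with at least 1 CPM in either library, 1.91% were at least 2-fold lower and 2.72% at least 2-fold higher. At 1.5-fold, 3 of 6 members were lower, against 10.2% of all transcripts. The members were chosen with earlier results of these data known, so these shares are no test of the set. The median of the 6 was -0.25, beside -0.0016 for all transcripts, and without HSPA1B the median of the remaining 5 was 0.17. HSPA1A, a near-identical copy of HSPA1B, and processed pseudogenes of HSPA8 and HSP90AA1 can share reads with these genes, and how the authors' mapping divided them was not tested.

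**Figure D2:**
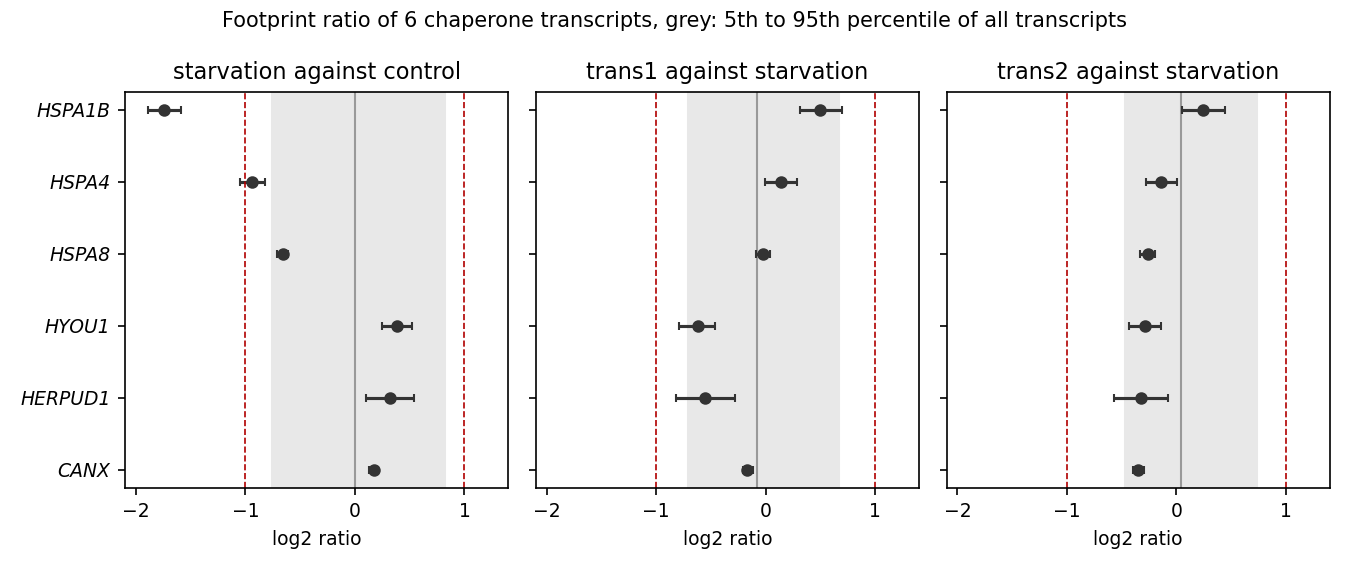
Log2 footprint ratio of 6 chaperone transcripts in 3 comparisons, with exact 95% intervals of counting error. Grey bands run between the 5th and 95th percentile of all transcripts, the grey line is their median and dashed lines mark 2-fold. HSPA1B at -1.74 is the only point past 2-fold, under starvation against control.

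The starvation library is part of all 3 comparisons, which are therefore not independent. Low HSP70 values and high ER member values in it enter the trans-RNA ratios below with the opposite sign. Of the 6 members, 0 passed 2-fold in either trans-RNA library. HSPA1B had 65.8 CPM in trans1, 54.7 CPM in trans2 and 46.1 CPM in starvation, giving log2 ratios of 0.50 (0.31 to 0.70) for trans1 and 0.24 (0.049 to 0.44) for trans2. Both trans-RNA libraries were thus above starvation over the whole transcript and far below the 156.1 CPM of control. In trans2 the stop window of HSPA1B was within counting error of starvation (0.048, -0.22 to 0.32), with 0.34 (0.050 to 0.63) outside both windows, and in trans1 the stop window was at 0.54 (0.28 to 0.80). HSPA4 had 107.9 CPM in trans1, 88.6 CPM in trans2 and 97.7 CPM in starvation, and both its intervals included 0. In its stop window alone HSPA4 was higher in trans1, with 104 reads in trans1 and 86 in starvation (0.82, 0.43 to 1.21), while outside both windows the interval included 0 (0.033, -0.13 to 0.19). HSPA8 had 521.6 CPM in trans1 and 530.5 CPM in starvation (-0.024, -0.089 to 0.040), against 442.2 CPM in trans2 (-0.26, -0.33 to -0.20). The constitutive HSP70 was therefore within counting error of starvation in trans1 and below it in trans2.

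All 3 ER members were lower in both trans-RNA libraries than in starvation, the library where each was highest. Of all transcripts, 58.5% were below starvation in trans1 and 45.7% in trans2. In control, HYOU1 had 79.8 CPM, HERPUD1 28.8 CPM and CANX 962.9 CPM. HYOU1 had 67.5 CPM in trans1, 85.4 CPM in trans2 and 104.4 CPM in starvation, with ratios of -0.62 (-0.79 to -0.46) in trans1 and -0.29 (-0.43 to -0.14) in trans2. HERPUD1 had 24.5 CPM in trans1, 28.8 CPM in trans2 and 36.3 CPM in starvation, with ratios of -0.55 (-0.82 to -0.28) in trans1 and -0.32 (-0.57 to -0.078) in trans2. CANX had 963.3 CPM in trans1, 848.4 CPM in trans2 and 1081.6 CPM in starvation, with ratios of -0.17 (-0.21 to -0.12) in trans1 and -0.35 (-0.40 to -0.30) in trans2. HYOU1 thus lay lower in trans1 than in trans2 and CANX lower in trans2 than in trans1, each with intervals that did not overlap, while the intervals of HERPUD1 overlapped. Their places among all transcripts ran from 7.27 to 40.1% with a lower ratio in trans1 and from 10.9 to 15.0% in trans2.

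In trans1, 1.54% of all transcripts were at least 2-fold lower than in starvation and 1.58% at least 2-fold higher. HYOU1, at 1.54-fold lower, was the only member past 1.5-fold there, where 8.49% of transcripts were at least 1.5-fold lower. It no longer passed 1.5-fold when ratios were centred on all transcripts (-0.54). Without the highest position of each transcript it stood at -0.57 with library totals recomputed, short of 1.5-fold. On unchanged library totals it stood at -0.59, at the edge of 1.5-fold. In trans2, 0.399% were at least 2-fold lower and 1.98% at least 2-fold higher. The median of the 6 members was -0.096 in trans1, beside -0.078 for all transcripts, and -0.27 in trans2, beside 0.037.

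The start tables cover 30 nt before the start codon to 300 nt after it, and the stop tables the mirror stretch around the stop codon. Which base of a footprint a position marks is not given by the labels or the headers. A read listed before the start codon therefore does not show that the ribosome stood upstream of it. Summed over transcripts of 606 nt or more, the highest position of the start window was -12 in trans2, starvation and control and -3 in trans1. The highest of the stop window was -18 in trans1, starvation and control and -225 in trans2. Most reads of every member kept the reading frame. Of coding reads in the windows, 71.4 to 91.2% fell on the first base of a codon across the 6 members in trans1, 77.2 to 93.0% in trans2, 85.0 to 94.1% in starvation and 85.5 to 91.5% in control. Over all transcripts of that length the share was 82.2% in trans1, 83.1% in trans2, 86.5% in starvation and 85.7% in control.

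HSPA1B had no read at positions 0 to 300 of its coding region in any of the 4 libraries. With 403 reads in trans1, 412 in trans2, 432 in starvation and 1661 in control on the transcript, 0 reads allow a share there of up to 0.911% in trans1, 0.891% in trans2, 0.850% in starvation and 0.222% in control, by the exact interval. Among 3297 transcripts of 606 nt or more with at least 400 control reads, 19 had this gap in all 4 libraries, HSPA1B among them. The start window held only reads before the start codon, 19 in trans1, 30 in trans2, 15 in starvation and 46 in control. Of these, 15 reads in trans1, 22 in trans2, all 15 in starvation and 23 in control lay at -12, the position that was highest over all transcripts in 3 of the 4 libraries.

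The reads of HSPA1B in the last 300 nt before the stop codon fell into 2 separate stretches, and from the stop codon on there were 0 reads in trans1, 4 in trans2, 4 in starvation and 19 in control. From -246 to -219 there were 175 reads in trans1, 98 in trans2, 158 in starvation and 516 in control. From -88 to -2 there were 53 reads in trans1, 95 in trans2, 75 in starvation and 406 in control, and 0 reads lay between the stretches in any library. The highest position of HSPA1B in all 4 libraries was in the first stretch. Position -225 held 18.1% (14.5 to 22.2) of the transcript's reads in trans1, 16.7% (13.3 to 20.7) in trans2, 21.1% (17.3 to 25.2) in starvation and 23.8% (21.8 to 25.9) in control. Whether the empty stretches are those identical to HSPA1A, where a read has more than 1 place to go, was not tested, since no transcript sequence was used. The lower level in starvation did not rest on 1 position or stretch. The ratio was -1.77 (-1.97 to -1.57) in the stop window, -1.67 (-1.91 to -1.44) outside both windows and -1.68 (-1.86 to -1.51) without position -225, and -1.03 (-1.60 to -0.42) over the few reads of the start window, all scaled to the same library totals.

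**Figure D3:**
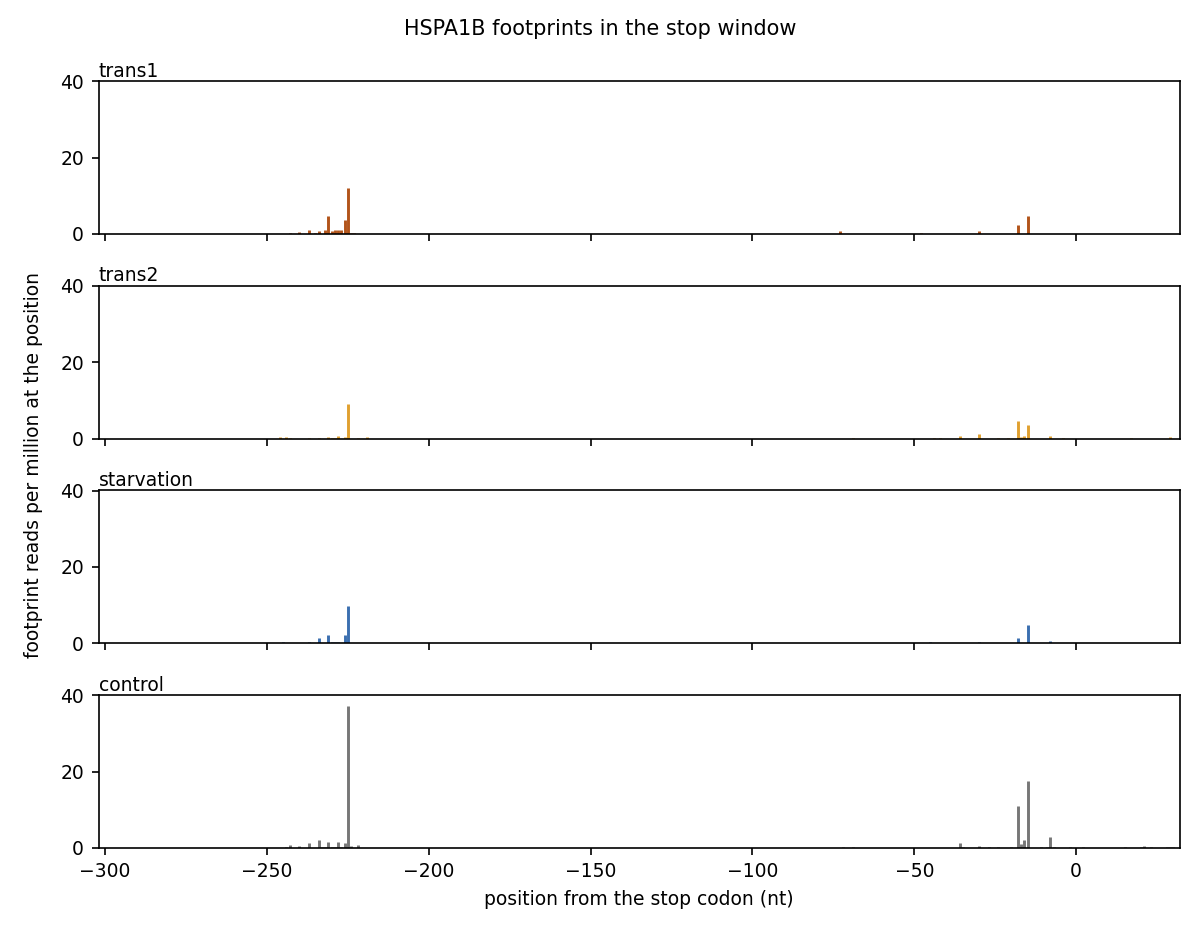
HSPA1B footprints by position in the stop window, in CPM, with 1 panel per library and a shared axis. Reads lie between -246 and -219 and after -88 in all 4 panels, and position -225 is highest in control at 37.1 CPM.

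HSPA4 and HSPA8 were lower in starvation along the whole transcript. HSPA4 gave ratios of -0.92 (-1.33 to -0.51) in the start window, -1.13 (-1.48 to -0.80) in the stop window and -0.90 (-1.02 to -0.77) outside both. HSPA8 gave -1.02 (-1.14 to -0.89) in the start window, -0.70 (-0.80 to -0.61) in the stop window and -0.52 (-0.59 to -0.46) outside both, so its difference was larger near the start. HSPA4 had 0 reads in the 30 nt before the start codon in all 4 libraries, which allows up to 8.81% of its start window in trans1 and 2.76% in control. In trans2, HSPA8 stood above starvation in the start window (0.26, 0.11 to 0.41) and below it in the stop window (-0.39, -0.52 to -0.26), so the sign of its ratio depended on the place read.

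CANX had reads spread across its start window, and several positions there differed between libraries, of which 3 are given. Position -5, just before the start codon, held 32 reads in trans1, 248 in trans2, 223 in starvation and 298 in control. As a share of CANX reads this was 0.542% (0.371 to 0.764) in trans1, 3.88% (3.42 to 4.39) in trans2, 2.2% (1.92 to 2.50) in starvation and 2.91% (2.59 to 3.25) in control. The trans1 library was thus below the other 3 with no overlap of intervals. Position 285 held 517 reads in trans1, 265 in trans2, 538 in starvation and 118 in control, or 8.76% (8.05 to 9.51) of CANX reads in trans1, 4.15% (3.67 to 4.67) in trans2, 5.30% (4.88 to 5.76) in starvation and 1.15% (0.954 to 1.38) in control. All 3 starved libraries exceeded control there. The next codon, at 288, ran the other way for CANX, with 29 reads (4.73 CPM) in trans1, 112 (14.9 CPM) in trans2, 106 (11.3 CPM) in starvation and 191 (17.9 CPM) in control.

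**Figure D4:**
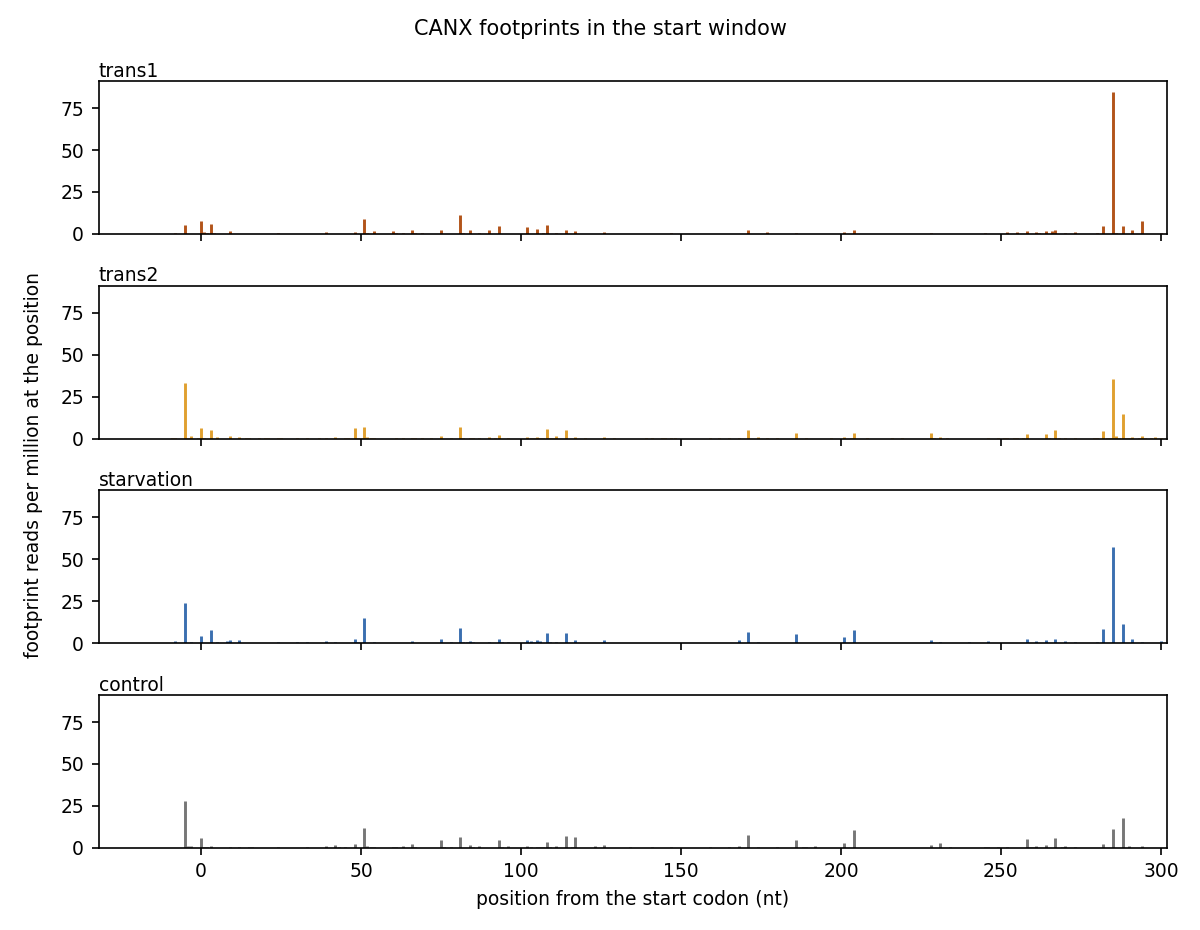
CANX footprints by position in the start window, in CPM, with 1 panel per library and a shared axis. The column at 285 is 84.4 CPM in trans1, 35.2 in trans2, 57.4 in starvation and 11.1 in control, and the column at -5 is lowest in trans1 at 5.22 CPM.

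The end of the CANX coding region differed as well. The last 300 nt before the stop held 46.3% (45.0 to 47.5) of its reads in trans1, 28.9% (27.8 to 30.1) in trans2, 39.7% (38.8 to 40.7) in starvation and 33.6% (32.7 to 34.5) in control. In transcripts of 1500 to 2100 nt with at least 100 reads, the median share there was 11.1% in trans1, 12.5% in trans2, 12.6% in starvation and 13.5% in control, and the 95th percentile was 37.6% in trans1, 31.1% in trans2, 37.0% in starvation and 32.6% in control. CANX lay above that percentile in trans1, starvation and control and below it in trans2. Its ratio accordingly depended on the stretch read. For trans2 against starvation it was -0.80 (-0.88 to -0.72) in the stop window and -0.029 (-0.098 to 0.040) outside both windows, and for trans1 it was 0.052 (-0.018 to 0.12) in the stop window and -0.44 (-0.52 to -0.36) outside. Under starvation against control it was 0.41 (0.34 to 0.47) in the stop window and -0.066 (-0.13 to -0.0045) outside.

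HYOU1 and HERPUD1 had too few window reads for such detail. HYOU1 had 4 of 24 start window reads before the start codon in trans1 (16.7%, 4.74 to 37.4), 6 of 71 in trans2 (8.45%, 3.16 to 17.5), 30 of 123 in starvation (24.4%, 17.1 to 33.0) and 12 of 117 in control (10.3%, 5.41 to 17.2). The starvation and control intervals touch only at their ends. Of these HYOU1 reads, 17 in starvation lay at the single position -12, with 0 there in trans1, 1 in trans2 and 1 in control. In trans1 the HYOU1 ratio against starvation was -1.52 (-2.07 to -0.98) in the start window, -1.18 (-1.75 to -0.61) in the stop window and -0.44 (-0.62 to -0.26) outside both, so fewer reads were found throughout. HERPUD1 had 0 reads before the start codon in all 4 libraries, out of 37 start window reads in trans1, 55 in trans2, 70 in starvation and 83 in control. Its starvation ratio was -0.056 (-0.48 to 0.37) in the start window and 0.36 (-0.10 to 0.82) in the stop window, both within counting error of 0, and 0.44 (0.15 to 0.72) outside both, where most of its reads lay.

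The wider pathways were described with lists of 63 cytosolic chaperones and cochaperones and 73 ER folding, quality control and unfolded protein response genes. The cytosolic list also holds the transcription factor HSF1, and the place of each protein in the cell was not checked here. Only transcripts named in the peak lists could be matched, which left 20 cytosolic and 16 ER transcripts. Like the members, the pathway lists were chosen with earlier results of these data known. Under starvation 16 of 20 cytosolic transcripts had a ratio below 0, with a median of -0.23, and 1, HSPA1B, was at least 2-fold lower. Without the members 13 of 17 were below 0, with a median of -0.17, where 50.2% of all transcripts were below 0. The lowest after HSPA1B and HSPA4 was HSPBP1, a nucleotide exchange factor of HSP70, with 35.9 CPM in starvation and 64.4 CPM in control (-0.82, -1.01 to -0.64). The highest were the J-domain proteins DNAJC8 (0.55, 0.49 to 0.60) and DNAJC9 (0.51, 0.43 to 0.60) and the HSP70 cochaperone ST13 (0.34, 0.29 to 0.39).

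ER transcripts were divided under starvation, with 7 of 16 below 0, a median of 0.15 and 0 past 2-fold in either direction. Without HYOU1, HERPUD1 and CANX, 7 of 13 were below 0 and the median was -0.028, so the positive median of the list rests on these members. HSPA13, an HSP70-type protein of the microsomal fraction, was highest at 60.7 CPM in starvation and 41.4 CPM in control (0.54, 0.36 to 0.72), followed by HYOU1 and HERPUD1. The oxidoreductase TMX3 was lowest (-0.49, -0.71 to -0.27), with the glucosyltransferase UGGT1, which tags misfolded glycoproteins, and DERL2, a channel protein of ER-associated degradation, both at -0.28. A pair of relatives, already counted in these lists, was named after their values had been seen. HSPA5, the ER HSP70 known as BiP, had 302.7 CPM in starvation and 260.6 CPM in control (0.21, 0.14 to 0.29), and cytosolic HSP90AB1 had 615.4 CPM in starvation and 617.0 CPM in control (-0.0038, -0.055 to 0.047).

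In the trans-RNA libraries 0 transcripts of either list passed 2-fold. Of cytosolic transcripts, 14 of 20 were below starvation in trans1 (median -0.11), where 58.5% of all transcripts were, and 16 of 20 in trans2 (median -0.28), where 45.7% were. Without the 3 members, 13 of 17 were below starvation in trans1 (median -0.14) and 14 of 17 in trans2 (median -0.34). The lowest in trans1 were HSPBP1 and CCT5, a subunit of the chaperonin TRiC, both at -0.56, and the prefoldin subunit PFDN1 at -0.36. The highest there after HSPA1B were the J-domain cochaperone DNAJA2 at 0.18 and the prefoldin subunit PFDN4 at 0.15. In trans2 the lowest were DNAJA1 and DNAJC8, both at -0.53, and the HSP90 cochaperone NUDC at -0.45, and the highest were HSPBP1 at 0.31, HSPA1B at 0.24 and HSF1 at 0.17. HSPBP1 and DNAJC8 thus took different places in the 2 libraries.

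Of ER transcripts, 10 of 16 were below starvation in trans1 (median -0.19), where 58.5% of all transcripts were, and 13 of 16 in trans2 (median -0.22), where 45.7% were. Without the 3 members, 7 of 13 were below starvation in trans1 (median -0.014) and 10 of 13 in trans2 (median -0.17), so the lower median in trans1 rests on the members. EDEM3, a mannosidase that marks glycoproteins for degradation, had 145.5 CPM in trans1 (0.67, 0.54 to 0.81), 64.4 CPM in trans2 (-0.49, -0.65 to -0.33) and 90.9 CPM in starvation. It was the highest of the list in trans1 and the lowest in trans2. SELENOS, a selenoprotein of ER-associated degradation, had 229.2 CPM in trans1 (0.41, 0.30 to 0.51), 326.0 CPM in trans2 (0.91, 0.82 to 1.00) and 172.7 CPM in starvation, above starvation in both. DNAJB14, an ER J-domain protein, was at 0.46 in trans1 and 0.14 in trans2, and DERL2 was lowest in trans1 at -0.66 and at 0.0061 in trans2.

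The transcripts most like each member over the 4 libraries were found by the distance between centred log2(CPM + 1) profiles, among 2598 named transcripts averaging 10 CPM or more. HSPA1B was nearest to the splicing factor SRSF6 at a distance of 0.219, and HSPA4 to HNRNPDL at 0.0413 and SUGT1, an HSP90 cochaperone, at 0.147. HSPA8 was nearest to HMGCS1 at 0.0434 and to HSCB, a mitochondrial J-domain protein, at 0.0839. HYOU1 and HERPUD1 were each among the 3 transcripts nearest to the other, at 0.0889, with ITGA6 nearest to HYOU1 at 0.0689 and RAC1 nearest to HERPUD1 at 0.0336. CANX was nearest to PELI2 at 0.0395. A distance over 4 libraries of 1 sample each is a weak measure of likeness.

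The authors' deposited table holds log2 fold values per open reading frame, 41748 frames in each of the 3 comparisons, with no header that states their direction. Over 4632 transcripts matched to recovered ratios for starvation and control, the authors' values for main or truncated frames increased with the ratios used here, with a Spearman correlation of 0.654, so positive was read as higher in starvation. The points are transcripts of the same libraries, and the correlation was 0.444 for trans1 and 0.523 for trans2. HSP90AA1, the inducible cytosolic HSP90, appears here with 4 frames, which ran from -1.65 to -0.46 for starvation, from -0.93 to -0.36 for trans1 and from -1.31 to -0.15 for trans2 in the authors' deposited table. In the authors' deposited table its truncated main frame stood at -1.54 for starvation, lower than all but 0.862% of frames, at -0.74 for trans1 and at -0.15 for trans2. The median of all frames in the authors' deposited table was -0.083 for starvation, -0.39 for trans1 and -0.19 for trans2.

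The 4 frames of HSPA1B in the authors' deposited table ran from -1.83 to -1.45 for starvation, from -0.018 to 0.11 for trans1 and from -0.082 to 0.63 for trans2. The lowest starvation value in the authors' deposited table, -1.83, belonged to an upstream frame. The 5 frames of HSPA4 in the authors' deposited table were all below 0 for starvation, from -1.28 to -0.20, where 60.1% of all frames were below 0. For CANX the main frame stood at 0.0088 for starvation, -0.67 for trans1 and -0.47 for trans2 in the authors' deposited table, and 9 of its 12 frames there were below 0 for starvation. All 12 CANX frames in the authors' deposited table were below 0 in both trans-RNA comparisons, where 85.0% of all frames in trans1 and 71.4% in trans2 were below 0. HERPUD1 had 1 frame in the authors' deposited table, an internal one, at -0.75 for starvation, 0.81 for trans1 and 1.17 for trans2, the opposite signs to its transcript ratios. HSPA8 and HYOU1 had 0 frames under these transcripts.

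Small RNA peaks are positions of a transcript listed with their small RNA reads, and the lowest count listed was 4, so a position without a peak is not shown to have no reads. The members carried 35 of 12171 peaks, 10 in the capped library and 25 in the total library. On the sense strand, 7 of 9 capped peaks lay in the 5′ untranslated region (UTR), with 171 of 201 reads, and 0 of 23 total peaks did. Over all transcripts, 61.7% of capped and 12.8% of total sense peaks lay there, so the members followed the general split of the 2 libraries.

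HSPA1B and HSP90AA1 had the largest capped peaks of the members. HSPA1B had 71, 12, 9 and 26 capped reads at -213, -212, -211 and -209 nt from the start codon, 4 neighbouring positions that made up 118 reads. HSP90AA1 had 1 capped peak of 38 reads at -59 nt from the start codon, and 90.2% of capped sense peaks had fewer reads. HERPUD1 had 10 capped reads at -98 nt and HYOU1 had 5 at -190 nt. HSPA4 had no 5′ UTR peak, and its 1 capped peak of 7 reads lay in the coding region 2367 nt after the start codon. HSPA8 and CANX had no capped peak at all, although their footprint levels were the highest of the 6 recovered transcripts. HSP90AA1 is not among these, so its footprint level is not known here.

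**Figure D5:**
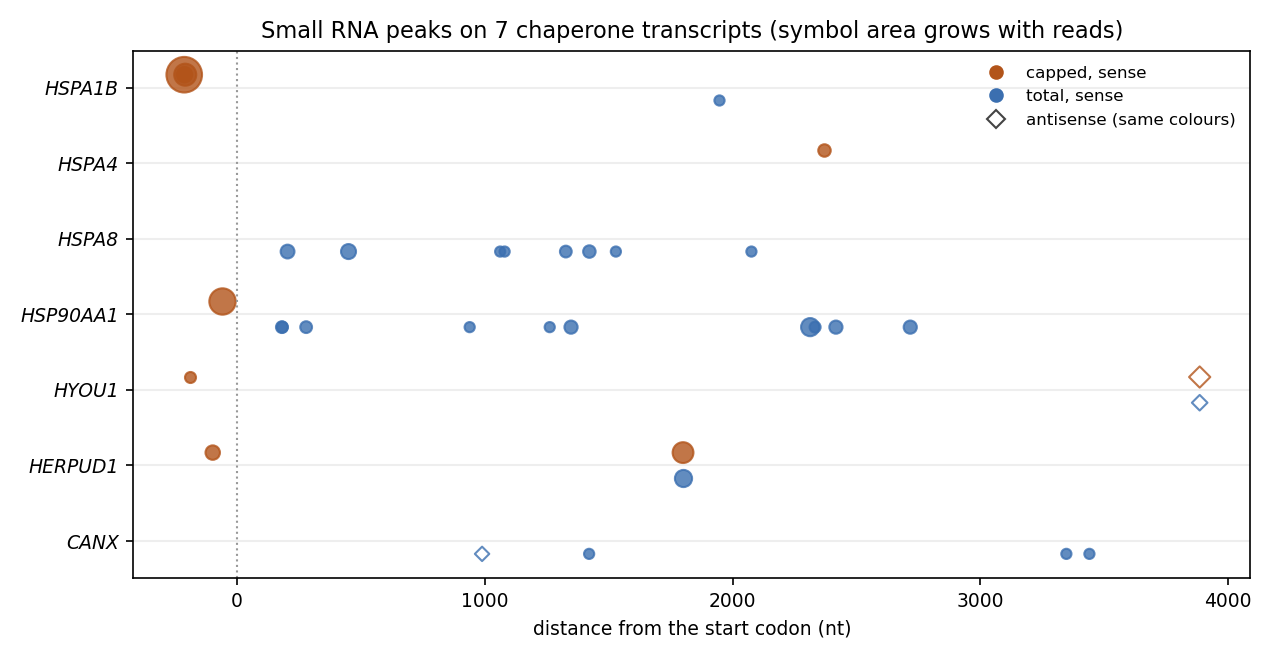
Small RNA peaks on the 7 chaperone transcripts by distance from the start codon in nt, with capped peaks above each line and total peaks below it, and symbol area growing with reads. Capped peaks of HSPA1B (71 reads) and HSP90AA1 (38 reads) lie before the start codon, and the total peaks of HSPA8 and HSP90AA1 are spread along the coding region and 3′ UTR.

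Total small RNA gave the opposite distribution. HSP90AA1 had 10 total peaks with 71 reads, 6 in the coding region and 4 in the 3′ UTR, the largest with 17 reads at 2313 nt. HSPA8 had 8 total peaks with 49 reads, 7 in the coding region, the largest with 11 reads at 450 nt. CANX had 3 sense peaks of 4 reads each and HSPA1B had 1 of 4 reads, the lowest count listed. That HSPA1B peak is labelled coding at 1946 nt, beyond the recovered length of 1929 nt, so its region label and the footprint tables do not match. HSPA4 had no total peak.

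Capped and total libraries shared 2 positions on these transcripts. HERPUD1 had 23 capped and 15 total reads at 1800 nt in its 3′ UTR, and HYOU1 had 11 capped and 5 total reads on the antisense strand at 3885 nt in its 3′ UTR. These were 20.0% of the 10 capped and 8.0% of the 25 total peaks of the members, beside 31.4% of capped and 34.0% of total peaks over all transcripts. The only other antisense peak was in the coding region of CANX, with 4 total reads at 989 nt.

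The identity of the cells could be checked in part. Of 8 HEK293 markers, LIN28B and CDH2 had recovered footprints, LIN28B with 33.6 to 56.0 CPM and CDH2 with 27.8 to 46.6 CPM over the 4 libraries. Of 8 markers of blood, liver and connective tissue cells, 0 were matched to footprints. Symbols came only from the peak lists, so a marker missing there was not analysed here.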

How the data were processed

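STAR 2.7.10a, Bowtie 1.2.3, cutadapt 2.8 and bcl2fastq 2.20.0.422 are listed without roles in the submitters' processing notes, and so is the mouse build GRCm39, although the footprint tables carry human transcript identifiers. The signal in the deposited footprint tables is given for each nt near the ends of a coding region and is scaled within each transcript, as the values show. Read counts at single positions make up the deposited peak lists. The authors' fold tables hold log2 values per open reading frame, with scaling not given in the sources used here.

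Each signal value is a whole multiple of length divided by reads, which gave both for transcripts with reads at 8 or more positions in at least 2 libraries. The length exceeded the spacing of the windows by 3 nt in 762 of 765 transcripts with overlapping windows. It was raised to a multiple where windows held more reads than the total (226 transcripts, CANX among them). Totals include reads outside the coding region: where windows cover the whole of it, a median of 88.8% of reads lay inside. Ratios are log2 of CPM plus 1, over transcripts with at least 1 CPM, with 2-fold as the rule of size. Intervals are exact binomial (Clopper-Pearson). The recovery was also run on simulated data built with the same relation of signal, length and reads. Such a run does not test whether the deposited values follow that relation. Named list genes were the 3 highest and 3 lowest at 10 CPM or more, and any past 2-fold, with the 3 nearest profiles of each member. Members and lists were chosen with earlier results of these data known. Alternatives were other pseudocounts, windows, centring, filters and thresholds. Python 3.11.15, numpy 2.4.6, pandas 2.3.3 and scipy 1.17.1 were used.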

Additional observations from a re-analysis of the deposited data

How the results depend on the processing

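No paired analysis was possible because each group has 1 library. Of 126 values of single members under alternatives, 120 kept their sign and 22 moved past their counting interval. The only main value past 2-fold, HSPA1B under starvation against control, kept its sign throughout. For starvation against control, the median of the 6 members was -0.52 from the start window and -0.17 from the stop window, each read by itself, 2 members were past 2-fold in either, and 3 passed 1.5-fold. For trans1 against starvation, the median was -0.24 from the start window, 0.0014 from the stop window and -0.018 when centred on all transcripts. In trans1, 1 member was past 2-fold with either window and 1 passed 1.5-fold. For trans2 the median was -0.046 from the start window, where 1 member, HSPA1B, passed 2-fold at 1.14. That value rests on 30 reads in trans2 and 15 in starvation. The single-window values here were scaled to the reads of that window over all transcripts. On the library totals used in the Results, HSPA1B stood at 0.94 (0.27 to 1.56), short of 2-fold. The cause of these shifts was not tested. An alternative added after seeing the data left out HSPA1B and gave medians of 0.17 for starvation and -0.17 for trans1. With peaks of at least 10 reads, 10 of 35 peaks were left, and with positions within 10 nt joined, 31. With 5 nt allowed, shared positions stayed at 2. Depth limits HERPUD1, with 150 to 340 reads per library, most.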
